A study of Mus musculus with 22 samples.

Results

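Fatty acid oxidation and ketone metabolism were followed here through 34 mouse genes, chosen by name for their place in the pathway. They cover fatty acid activation and binding, the carnitine shuttle, the mitochondrial and peroxisomal oxidation steps, transfer of electrons to the respiratory chain, the nuclear receptor PPAR alpha and the use of ketone bodies. All 34 listed genes were found, among 55385 genes quantified, and all 34 were among the 20524 genes that passed the filter on low counts.

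The RNA came from ribosomes tagged in 6 cell types of the mouse brain (RiboTag), each with 3 replicates. Each animal had a Cre transgene and, from a dam of the B6N.129-Rpl22tm1.1Psam/J line, a conditional Rpl22 allele (fl/+), which adds an HA tag to the ribosome where Cre acts. Tissue was taken at the age of 6 weeks and tagged ribosomes were pulled down with anti-HA beads. Rbp4-Cre served for dentate gyrus granule cells, taken from hippocampus, and for layer V neurons, taken from cortex. Gabra6-Cre marked cerebellar granule cells in cerebellum, and Dlx6a-Cre marked interneurons in hippocampus, where 2 mice were pooled per library. Astrocytes (Aldh1-cre in the labels, the inducible Aldh1l1 line in the methods) and microglia (Tmem119-cre, also inducible) came from cortex of mice given tamoxifen. Of 22 libraries, 18 were used, 1 for each replicate. The other 4 were repeats in a later batch, as the titles give them, although the labels of 1 pair differ in sex. All microglia and interneuron libraries were in batch 2 and the main libraries of the other 4 cell types in batch 1. Among 20 libraries labelled with a single sex, 1 did not match its label.

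Long-chain fatty acids are joined to coenzyme A before use, carried into mitochondria as carnitine esters, and shortened from the carboxyl end in a repeated spiral of dehydrogenation, hydration, dehydrogenation and thiolysis, while peroxisomes shorten very long chains. In brain, oxidation of fatty acids has been assigned mainly to astrocytes, and neurons are known to draw little of their energy from it. Ketone bodies made in liver reach the brain during fasting and suckling, where Bdh1 turns beta-hydroxybutyrate into acetoacetate and Oxct1 returns acetoacetate to its coenzyme A ester.

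The cell type labels were checked against marker genes in TPM, a transcript's share of all transcripts in a library after scaling for transcript length, which is the only scale on which genes are compared with each other here. Each of the 6 astrocyte markers was found, and their summed level was 8104, 7865 and 8192 TPM in the 3 astrocyte libraries, with Slc1a2 the most abundant at a mean of 3299 TPM. The microglia libraries held 15532, 16148 and 15240.0 TPM of 5 markers of their own, led by C1qa. Gabra6, Zic1 and Neurod1 summed to 5883, 5803 and 5824 TPM in cerebellar granule cells, and Gad1, Gad2, Slc32a1 and Dlx1 to 3211, 3371 and 3244 TPM in interneurons. Prox1 and Dsp reached 259.8, 268 and 240.2 TPM in dentate gyrus granule cells. These 5 lists were each highest in the cell type they name. The layer V list was not: Bcl11b, Fezf2 and Etv1 summed to 197, 199 and 211 TPM in layer V neurons and to 712, 726 and 745 TPM in cerebellar granule cells, where Etv1 made up nearly all of it and Fezf2 was at 0. The sum was also higher in dentate granule cells, at a mean of 215 TPM, where Bcl11b had a mean of 159.5 TPM against 34.3 TPM in layer V neurons. Of the 3 only Fezf2 was highest in layer V neurons, at 85.4, 84.6 and 86.6 TPM.

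Markers of other cells were present in some libraries. The 6 astrocyte markers summed to 211, 209.8 and 264 TPM in microglia, where single markers stood at 1.40 to 7.32% of their astrocyte level (median 2.41%), with Slc1a3 the most abundant. Their mean sum was 112 TPM in layer V neurons, 103 in dentate granule cells, 83.9 in interneurons and 30.9 in cerebellar granule cells. These are 1.40, 1.28, 1.04 and 0.384% of the sum in astrocytes, in that order. The 4 oligodendrocyte markers summed to 2403, 2561 and 2391 TPM in interneurons, against means of 773 in astrocytes, 419.8 in microglia, 283 in dentate granule cells, 185 in layer V neurons and 98.8 in cerebellar granule cells. Mbp was the most abundant of them in interneurons, at a mean of 1184 TPM, and none of the 4 was at 0 in any cell type. Rbfox3, Snap25 and Syt1, found in neurons generally, summed to 775, 879 and 638 TPM in astrocytes and 314, 352 and 321 TPM in microglia, against 6725, 6586 and 6757 TPM in layer V neurons, which are also cortical, and 12202, 12370.0 and 12230.0 TPM in cerebellar granule cells. Slc17a7, of excitatory neurons, had means of 206 TPM in astrocytes and 109 in microglia, against 1208 in layer V neurons. Endothelial markers summed to 195, 129 and 148 TPM in microglia, led by Cldn5.

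The pathway made up by far the largest share of RNA in astrocytes. The 34 genes summed to 7587, 7142 and 7605 TPM in the 3 astrocyte libraries, against 1958, 1942 and 2075 in interneurons, 1834, 1840.1 and 1804 in microglia, 1402, 1392 and 1449 in layer V neurons, 1389.6, 1389 and 1428 in cerebellar granule cells and 1227, 1352 and 1398 in dentate granule cells. Every astrocyte library lay above every other library, and no other cell type came within a factor of 3 of the astrocyte mean. Taken gene by gene, 25 of the 34 were higher in all 3 astrocyte libraries than in each of the 15 others, a pattern that 10.4% of all genes tested showed. The cell type with the highest mean was astrocytes for 26 genes, microglia for 4 (Acsl5, Acads, Acaa1a and Hsd17b4), dentate granule cells for 2 (Acsl4 and Cpt1c), layer V neurons for Fabp3 and interneurons for Acsl1. Layer V neurons had the lowest mean of 16 genes. The shares of all genes tested with their highest or lowest mean in each cell type were not computed. Levels are shares of the RNA on tagged ribosomes within a library, so they do not give the amount of RNA per cell.

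**Figure D1:**
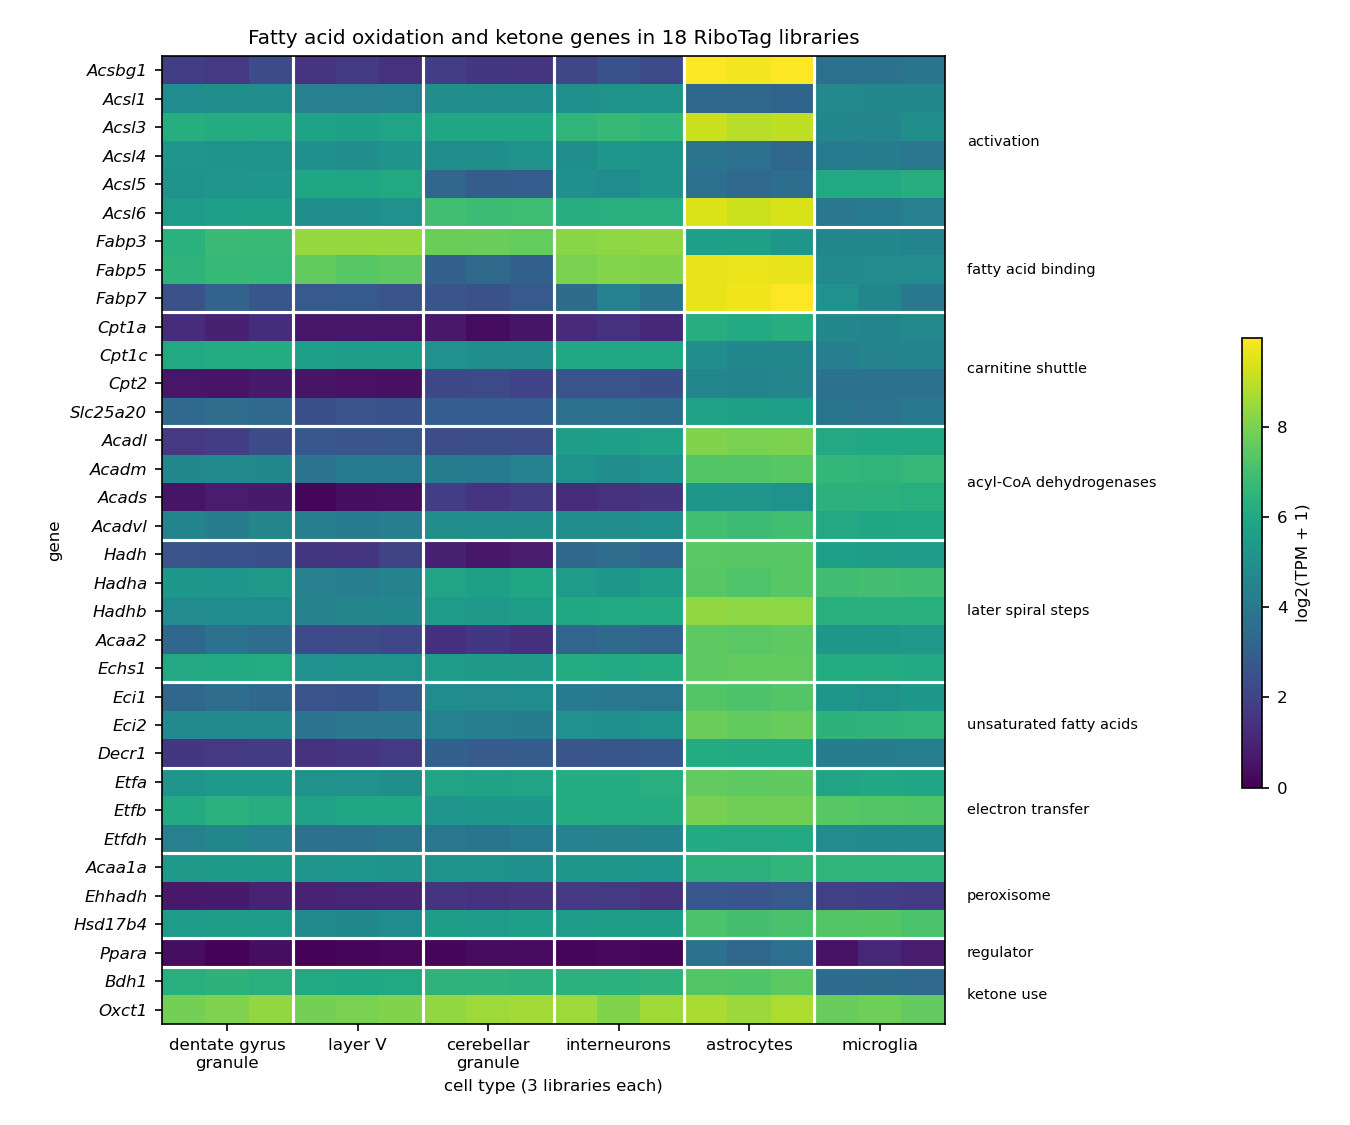
Heat map of the level of each of the 34 genes (vertical, grouped by role) in each of the 18 libraries (horizontal, grouped by cell type), as the log2 of TPM + 1. The 3 astrocyte columns are the highest of all 18 for 25 of the 34 genes.

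Differences were tested with edgeR on estimated counts, with all 18 libraries in 1 fit, and a gene was called when its adjusted p was at most 0.05 and its estimated fold at least 2. The p-values measure spread between the 3 libraries of a cell type, and neurons are the mean of the 4 neuronal types on the log2 scale. Against neurons, 27 of the 34 genes were higher in astrocytes (79.4%, against 28.3% of all genes tested) and 4 lower (11.8%, against 13.7%), with a median log2 fold change of 3.02 beside 0.14 over all genes. Microglia were above neurons for 22 (64.7%, against 31.7%) and below for 6 (17.6%, against 21.4%), with a median of 1.54 beside 0.15. Set against microglia, astrocytes were higher for 22 (64.7%, against 23.1%) and lower for 3 (8.82%, against 21.1%), with a median of 1.44 beside 0.04. These 3 comparisons share libraries.
Between neurons the picture was different. Cerebellar granule cells were higher than the 3 forebrain types for 6 genes (17.6%, against 14.5% of all genes) and lower for another 6 (17.6%, against 29.1%), with a median of -0.25 beside -0.21. Among the forebrain types, 14 genes differed by at least 2-fold (41.2%, against 42.5% of all genes). How these shares compare depended on the processing: they were 52.9% against 27.8% with limma on log2(TPM + 1), 58.8% against 42.5% with limma on log2(TPM + 0.1), and 11.8% against 26.4% without the interneuron libraries, a setting added after the data had been seen. With all 22 libraries and batch as a term, a fit that counts the 4 repeats as separate samples, the counts were 27 and 4 for astrocytes against neurons, 21 and 6 for microglia against neurons, 22 and 3 for astrocytes against microglia, 6 and 6 for cerebellar granule cells, and 14 for the forebrain types. That fit tested 20927 genes. In the same order it called 5670 and 3169, 6457 and 4614, 4696 and 4468, 3324 and 6102, and 8956 of them. Batch 1 alone, which has no microglia or interneurons, gave 27 and 4 for astrocytes against neurons and 7 and 5 for cerebellar granule cells. Of all 19079 genes tested there, 5802 and 2707 were called for astrocytes against neurons and 3261 and 5463 for cerebellar granule cells.

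Acyl-CoA synthetases, which activate fatty acids, split between the cell types. Acsbg1, a synthetase of the bubblegum family, stood at 1001, 901 and 999.9 TPM in astrocytes, 11.5, 12.8 and 13.7 in microglia and 1.78 to 4.79 TPM (median 2.38) across the 12 neuronal libraries. Every astrocyte library was above every microglia library, and these were above every neuronal library. It had the largest difference of the 34 genes between astrocytes and neurons (log2 fold change 8.76, SE 0.09, adjusted p = 2.8e-22). Acsl3, found at the endoplasmic reticulum and on lipid droplets, was at 585, 481 and 519 TPM in astrocytes, 51.8 to 102 TPM (median 64.7) in neurons and 22.8, 22.6 and 30.5 in microglia. The 3 groups did not overlap, with microglia lowest (log2 fold change -1.44, SE 0.06, adjusted p = 2.3e-13), while astrocytes exceeded neurons (log2 fold change 3.08, SE 0.05, adjusted p = 1.2e-19). A stretch of 244 bases, 5.60% of the exon bases of Acsl3, is shared on the same strand with Utp14b, which reached a mean of 10.6 TPM in astrocytes, so a small part of the Acsl3 level is uncertain.
Acsl6, which is rich in brain and prefers docosahexaenoic acid, was at 701, 607 and 675 TPM in astrocytes and 15.2, 15.7 and 19.3 in microglia. Among neurons it was at 124, 114 and 119 TPM in cerebellar granule cells, 74.3, 75.8 and 77.5 in interneurons, 45.5, 49.1 and 50.4 in dentate granule cells and 30.2, 30.4 and 32.0 in layer V neurons. None of the 6 cell types overlapped with another for this gene. Astrocytes exceeded neurons (log2 fold change 3.19, SE 0.05, adjusted p = 3.3e-20) and cerebellar granule cells exceeded the forebrain types (log2 fold change 1.46, SE 0.05, adjusted p = 1.9e-14).

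The other synthetases were lower in astrocytes than in neurons. Acsl1, the main synthetase of fat and heart, was at 9.27, 9.38 and 8.39 TPM in astrocytes, 24.8, 23.96 and 23.9 in microglia and 19.2 to 34.6 TPM (median 29.7) in neurons. Astrocytes lay below all other libraries (log2 fold change -1.38, SE 0.04, adjusted p = 3.0e-15), and microglia lay within the neuronal range. Acsl4, which prefers arachidonic acid, was at 13.4, 11.6 and 9.43 TPM in astrocytes, 16.9, 17.4 and 14.9 in microglia and 30.5 to 36.8 TPM (median 33.2) in neurons. Both glial types were below every neuronal library, and the difference passed the 2-fold limit in astrocytes (log2 fold change -1.39, SE 0.07, adjusted p = 3.3e-12) but not in microglia (log2 fold change -0.92, SE 0.07, adjusted p = 6.0e-10), where it was -1.01 and called without interneuron replicate 3. Acsl5, found on the outer mitochondrial membrane and the endoplasmic reticulum, was at 65.5, 66.9 and 74.6 TPM in microglia, 59.4, 57.7 and 65.4 in layer V neurons, 33.1, 36.4 and 36.9 in dentate granule cells and 31.3, 28.1 and 35.3 in interneurons. It was at 11.6, 9.78 and 11.3 TPM in astrocytes and 8.83, 6.73 and 6.84 in cerebellar granule cells. These low levels are uncertain in part, since 404 exon bases (8.31%) are shared on the opposite strand with Zdhhc6, at a mean of 27.6 TPM in astrocytes and 20.4 in cerebellar granule cells. Astrocytes thus lay between cerebellar granule cells and the forebrain types, dentate gyrus and interneuron values overlapped, and microglia and layer V neurons were nearly level. Against the neuronal mean astrocytes were lower (log2 fold change -1.12, SE 0.05, adjusted p = 1.4e-12). Microglia exceeded neurons (log2 fold change 1.24, SE 0.05, adjusted p = 1.6e-14) and astrocytes (log2 fold change -2.36, SE 0.07, adjusted p = 7.4e-16, astrocytes minus microglia).

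As shares of the summed TPM of the 6 synthetases, the make-up differed by cell type. Acsbg1 made up 44.2% and Acsl6 30.2% in astrocytes. Acsl5 made up 42.0% in microglia and 30.5% in layer V neurons, against 0.497% in astrocytes. Acsl6 was the largest share in cerebellar granule cells, at 47.8%, where Acsl5 was 3.00%. In dentate granule cells and interneurons Acsl3 was the largest, at 32.1% and 35.1%. The summed level itself was 2322, 2019.8 and 2223 TPM in astrocytes and 157, 159 and 177 in microglia. In microglia, Acsbg1, Acsl3 and Acsl6 were at or under the highest percent of the astrocyte level that any astrocyte marker reached there (7.32%), as were Fabp5, Fabp7, Ppara and Bdh1. The part of RNA from astrocytes in these 7 microglial values was not tested.

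**Figure D2:**
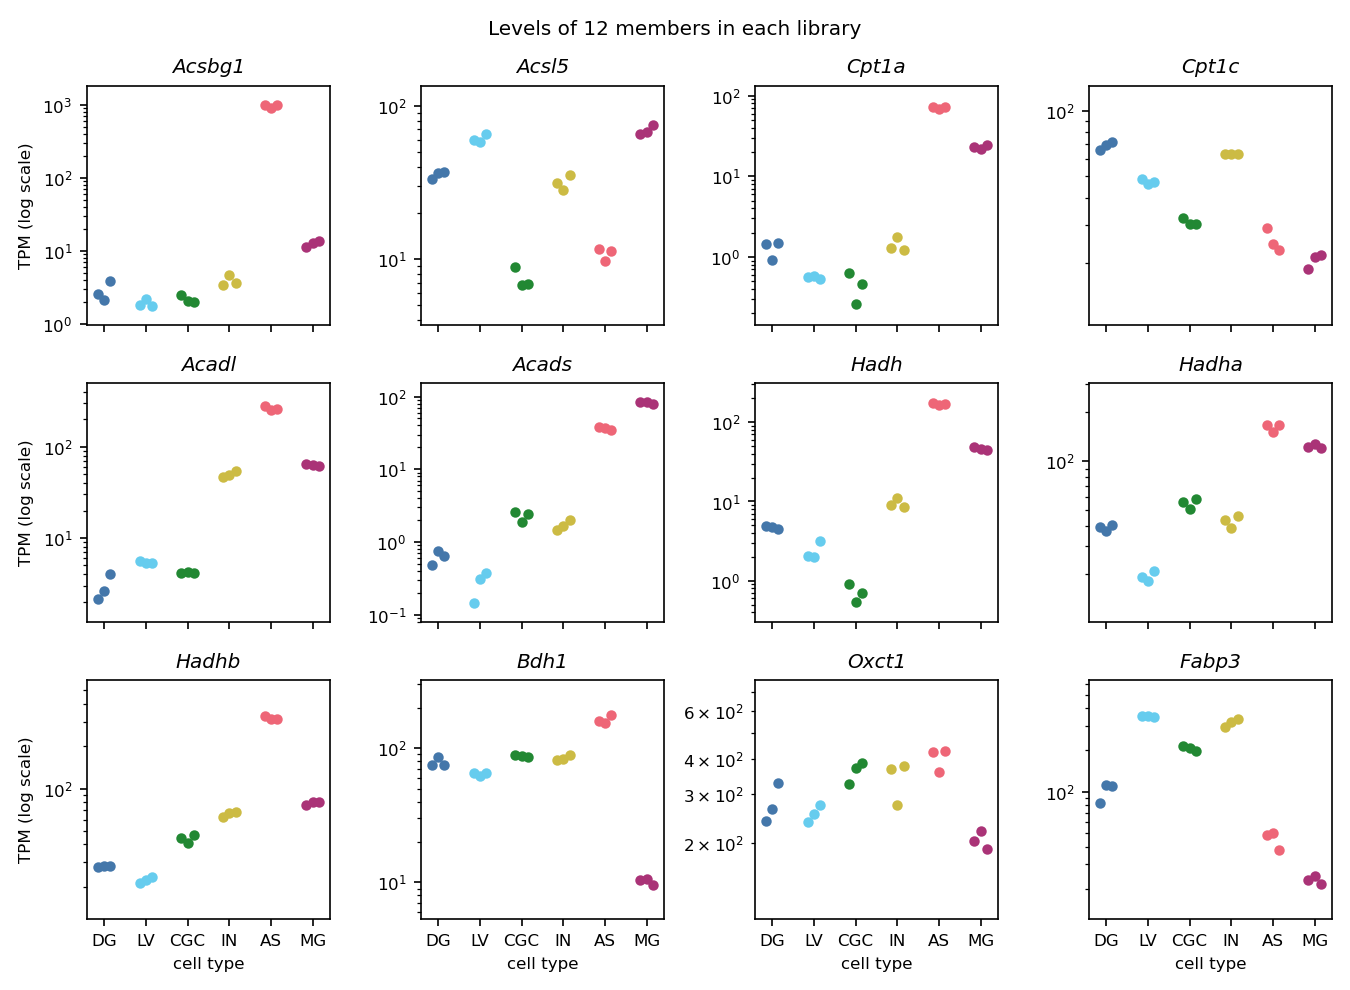
Level in TPM (log scale, vertical) of selected genes in each library, 1 point per library and 3 per cell type (horizontal): DG, dentate gyrus granule cells; LV, layer V neurons; CGC, cerebellar granule cells; IN, interneurons; AS, astrocytes; MG, microglia. Acsbg1 and Cpt1a are highest in all 3 astrocyte libraries, Acads in microglia and Fabp3 in layer V neurons.

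Acsl6 also differed in which transcripts made up its level. Of its 15 transcripts, 9 carry either of a pair of neighbouring alternative exons, known to encode the fatty acid gate, the part of the enzyme next to its fatty acid entrance, and 6 carry neither. The 6 held 18.7, 19.1 and 21.7% of Acsl6 TPM in microglia and means of 1.96 to 8.37% in the other cell types. Transcripts with the downstream exon made up 75.1, 73.4 and 75.5% of Acsl6 TPM in the 3 astrocyte libraries, 39.4, 28.8 and 32.9% in microglia and 14.7, 19.4 and 19.7% in dentate granule cells. Their share was 8.73, 10.5 and 6.42% in interneurons, 5.98, 9.89 and 8.27% in layer V neurons and 1.12, 2.04 and 2.95% in cerebellar granule cells. Astrocytes were above microglia and microglia above all neurons, without overlap. The upstream exon was highest where the downstream exon was lowest, with means of 94.3% in cerebellar granule cells, 85.8% in interneurons, 83.6% in layer V neurons, 75.3% in dentate granule cells, 46.5% in microglia and 23.4% in astrocytes. The microglial level of the gene is among those that were at or under 7.32% of the astrocyte level. Shares of transcripts were estimated by the quantification from reads that many transcripts share, and they are a description with no test.
Both exons are wholly coding and 78 bases long (26 codons), on the plus strand of chromosome 11 in GRCm38, with 57 bases between them. The upstream exon is chr11:54336936-54337013 and the downstream exon chr11:54337071-54337148. They have the same base at 46 of 78 positions (59.0%). They are shown because the cell types differ in the share of Acsl6 TPM with each exon. Capitals mark the 32 positions where the other exon has a different base.
Acsl6 upstream alternative exon: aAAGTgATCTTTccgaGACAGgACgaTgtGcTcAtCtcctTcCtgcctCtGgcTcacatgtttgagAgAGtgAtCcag
Acsl6 downstream alternative exon: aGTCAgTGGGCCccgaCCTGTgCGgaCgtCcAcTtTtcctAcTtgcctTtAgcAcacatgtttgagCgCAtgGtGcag

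The start of Acsl6 differed too. A transcript that starts at chr11:54314936 (plus strand) made up 71.2, 63.6 and 68.4% of Acsl6 TPM in astrocytes, against 22.4, 24.9 and 28.3% in microglia and 1.41, 1.501 and 0.175% in dentate granule cells. All starts near it, here called the downstream starts, summed to a mean of 70.1% in astrocytes, 27.6% in microglia and at most 2.59% in the neuronal types. In the 5 other cell types the leading protein-coding transcript was one that starts upstream, at chr11:54304202. That transcript carries the upstream exon and the astrocyte transcript the downstream exon, so that in these leading transcripts the start and the exon go together. They also end at different places, 54364752 and 54361535. The 2 transcripts with the longer end held means of 23.0% of Acsl6 TPM in astrocytes, 46.1% in microglia and 92.9% in cerebellar granule cells. These shares are close to those of the upstream exon, and whether exon and end vary apart was not tested. Coding sequence begins at 54304285 in the upstream transcript and at 54320178 in the astrocyte transcript, with coding lengths of 2166 and 2091 bases.
The sequence before the first annotated start of each group is shown because astrocytes and neurons differ in which group leads, on the plus strand of GRCm38. Before the most upstream start (54303798) lies chr11:54303574-54303797, and before the downstream starts chr11:54314653-54314895. The start that leads in neurons (54304202) lies further downstream, so the first stretch is not directly before it. Capitals mark AGGTCA, the core that nuclear receptors bind, and GGGCGG, the GC box, on either strand. The upstream stretch holds 2 matches to AGGTCA and the downstream stretch 0, and each holds 1 match to GGGCGG, all of them on the minus strand.
Acsl6 before the upstream starts: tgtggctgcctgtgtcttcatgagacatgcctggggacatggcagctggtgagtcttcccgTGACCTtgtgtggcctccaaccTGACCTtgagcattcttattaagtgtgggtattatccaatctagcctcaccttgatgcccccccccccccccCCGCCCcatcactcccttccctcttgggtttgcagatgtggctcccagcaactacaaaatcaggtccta
Acsl6 before the downstream starts: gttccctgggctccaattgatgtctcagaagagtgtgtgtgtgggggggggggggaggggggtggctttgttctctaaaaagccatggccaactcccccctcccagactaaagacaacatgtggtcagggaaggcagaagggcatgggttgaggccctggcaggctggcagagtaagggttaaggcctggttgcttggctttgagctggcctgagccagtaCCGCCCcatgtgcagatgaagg

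**Figure D3:**
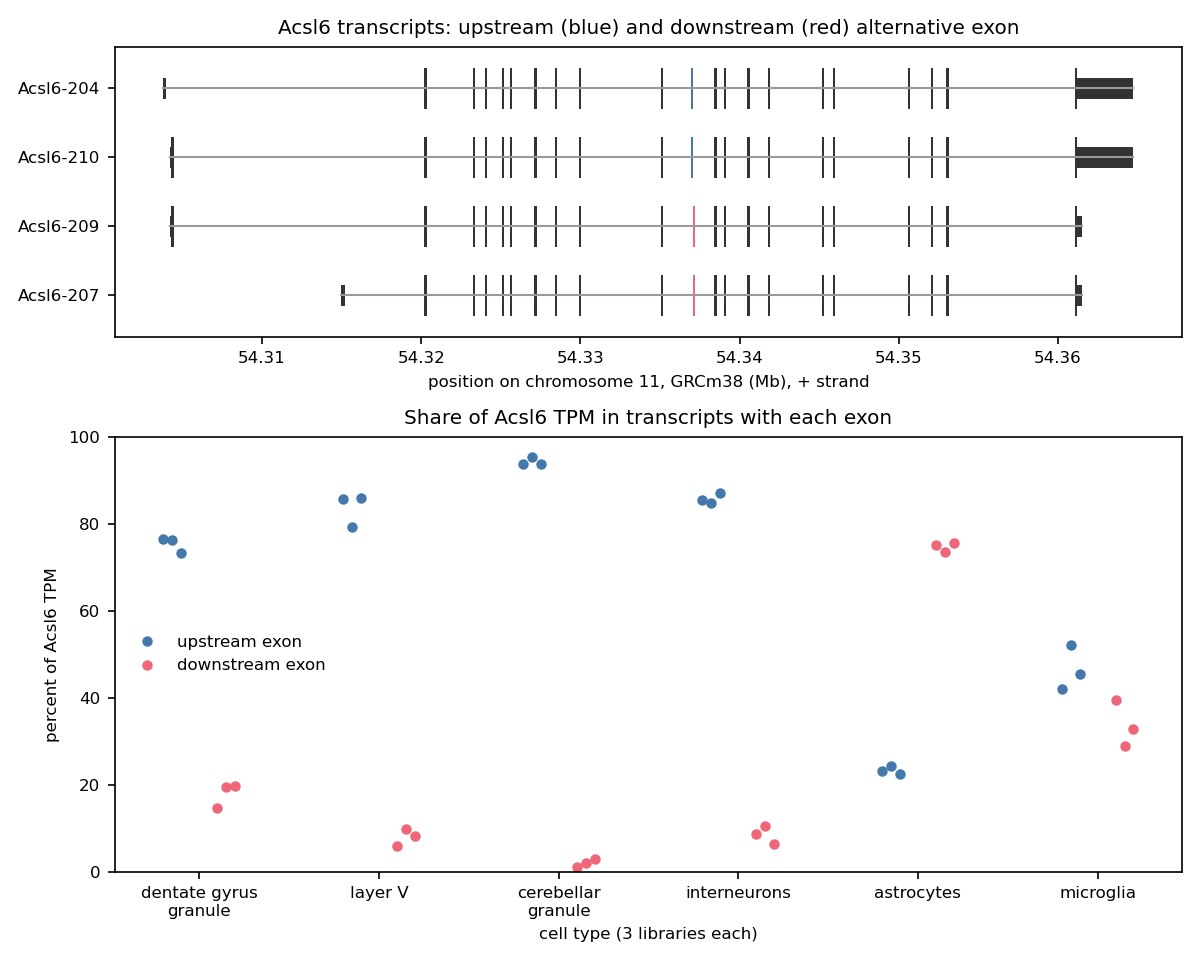
Top, exons of 4 Acsl6 transcripts (vertical) along chromosome 11 in GRCm38 (horizontal, Mb), coding parts taller, with the upstream alternative exon in blue and the downstream one in red. Bottom, percent of Acsl6 TPM (vertical) in transcripts with the upstream (blue) and with the downstream (red) exon, 1 point per library and 3 per cell type (horizontal); the downstream exon holds a mean of 74.7% in astrocytes and 2.04% in cerebellar granule cells.

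Among protein-coding transcripts alone, the one with the highest mean TPM was the same in all 6 cell types for 29 of the 34 genes, and it was not for 5: Acsl3, Acsl4, Acsl6, Ppara and Bdh1. A transcript that is not annotated as protein-coding was above these in all 6 cell types for Hadha, in cerebellar granule cells for Ppara and in dentate granule cells for Bdh1. The leading Acsl3 transcript of microglia held 47.5, 35.3 and 52.7% of the gene's TPM there and a mean of 16.7% in astrocytes, which shared another leading transcript with the neurons. That other transcript held 39.7, 50.5 and 30.4% in microglia. It led in replicate 2, so the difference in lead holds for the mean and for replicates 1 and 3. For Acsl4, the leading transcript of microglia held 58.8, 76.0 and 65.2% there, while the leading transcript of dentate granule cells held 83.9, 88.7 and 84.8% in those cells and 1.95, 11.2 and 3.27% in microglia.

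Fatty acid binding proteins, which carry fatty acids through the cytosol, differed in which cell types held them. Fabp7, the brain type known from radial glia and astrocytes, was at 812, 879 and 1019 TPM in astrocytes, 32.1, 23.3 and 15.4 in microglia and 4.59 to 19.8 TPM (median 5.93) in neurons. Astrocytes were far above the rest (log2 fold change 7.27, SE 0.15, adjusted p = 4.9e-18), and microglia overlapped with interneurons, which had the highest neuronal values. Fabp5, the epidermal type, was at 804, 841 and 788 TPM in astrocytes, 250.4, 278 and 273 in interneurons, 191, 168 and 182 in layer V neurons and 90.1, 102 and 104 in dentate granule cells. It was at 25.6, 27.1 and 27.0 TPM in microglia and 7.53, 10.1 and 7.53 in cerebellar granule cells. All 6 groups were separate, and cerebellar granule cells were lowest, with the largest fall of the 34 genes against the forebrain types (log2 fold change -4.33, SE 0.08, adjusted p = 2.2e-18). Microglia were also called lower than neurons (log2 fold change -1.21, SE 0.06, adjusted p = 1.8e-12), but without the interneuron libraries this difference was -0.67 and was not called.
Fabp3, the heart type, went the other way. Its level was 353, 352 and 345 TPM in layer V neurons, 295, 317 and 334 in interneurons, 214, 207.1 and 197 in cerebellar granule cells and 83.1, 112 and 109 in dentate granule cells. In astrocytes it was 48.7, 50.1 and 37.7 TPM and in microglia 23.2, 24.5 and 21.7 TPM. Both glial types were below all neurons (log2 fold change -2.01, SE 0.07, adjusted p = 1.9e-14 in astrocytes and -3.06 in microglia, adjusted p = 9.4e-17), and again no groups overlapped. Astrocytes exceeded microglia by a log2 fold change of 1.06, which was 0.93 without astrocyte replicate 2 and then not called, and the call was also lost with upper quartile factors, with a filter of at least 10 CPM in 3 libraries and with both limma settings. Exons of Fabp3 share 81 bases (9.84%) on the opposite strand with Zcchc17, whose mean was 119 to 130.4 TPM in the 3 other neuronal types and 116 TPM in interneurons, against 40.6 in astrocytes and 52.0 in microglia. Whether reads were assigned by strand is not stated, so its part in the level is uncertain. In cerebellar granule cells Fabp3 made up 93.8% of the summed TPM of the 3 proteins, and in astrocytes 2.60%. Neuronal markers were present in the glial libraries at the levels given above, and their part in the glial values of Fabp3 was not tested.

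Genes of the carnitine shuttle had log2 fold changes against neurons of -0.73 to 6.93 in astrocytes and -1.17 to 5.20 in microglia. Cpt1a, which forms carnitine esters at the outer mitochondrial membrane and sets the rate of the pathway, was at 73.2, 67.6 and 73.1 TPM in astrocytes, 23.4, 21.9 and 24.8 in microglia and 0.260 to 1.78 TPM (median 0.768) in neurons. The 3 groups were far apart, with astrocytes and microglia each above neurons (log2 fold change 6.93, SE 0.10, adjusted p = 3.8e-20 for astrocytes, log2 fold change 5.20, SE 0.10, adjusted p = 1.6e-18 for microglia). Cpt1c, a form of the endoplasmic reticulum known from neurons and with little enzyme activity, was higher in neurons than in glia. Its level was 65.9, 69.7 and 72.0 TPM in dentate granule cells, 63.1, 63.2 and 63.2 in interneurons, 48.7, 46.2 and 47.3 in layer V neurons and 32.3, 30.4 and 30.3 in cerebellar granule cells. Astrocytes had 28.9, 24.6 and 23.0 TPM and microglia 18.9, 21.4 and 21.8 TPM. Every neuronal library was above every glial library, and the difference passed the 2-fold limit in microglia (log2 fold change -1.17, SE 0.05, adjusted p = 9.3e-14) but not in astrocytes (log2 fold change -0.73, SE 0.05, adjusted p = 8.4e-11). The ratio of Cpt1c to Cpt1a in TPM was 0.395, 0.363 and 0.315 in astrocytes and 0.809, 0.978 and 0.882 in microglia, against means of 45.4 in interneurons, 56.8 in dentate granule cells, 78.0 in cerebellar granule cells and 84.9 in layer V neurons. It counts all transcripts, and the part of RNA from astrocytes in the low neuronal levels of Cpt1a was not tested. A Cpt1c transcript annotated with a retained intron held 34.8, 33.9 and 34.2% of the gene's TPM in microglia. Its mean share was 8.02% in astrocytes and 1.44 to 4.40% in the neuronal types, so a ratio of protein-coding transcripts would be lower in microglia.
Cpt2, which returns the fatty acid to coenzyme A inside mitochondria, was at 23.2, 22.02 and 22.5 TPM in astrocytes and 12.5, 12.2 and 12.3 in microglia. Neurons fell into separate levels, with 5.12, 5.03 and 4.38 TPM in interneurons, 3.46, 3.68 and 3.07 in cerebellar granule cells, 0.501, 0.459 and 0.648 in dentate granule cells and 0.431, 0.394 and 0.353 in layer V neurons. No groups overlapped, and astrocytes exceeded neurons (log2 fold change 4.49, SE 0.08, adjusted p = 7.6e-19) as did microglia (log2 fold change 3.4996, SE 0.08, adjusted p = 2.5e-17). Slc25a20, which exchanges carnitine esters for carnitine across the inner membrane, was at 52.9, 50.8 and 48.5 TPM in astrocytes, 13.7, 13.0 and 15.6 in microglia and 4.43 to 11.5 TPM (median 8.31) in neurons. Astrocytes were highest (log2 fold change 2.95, SE 0.05, adjusted p = 8.1e-20), and microglia stood just above the neuronal range (log2 fold change 1.02, SE 0.05, adjusted p = 1.3e-12). That last call sat at the 2-fold limit and was lost when any of 11 libraries was left out: dentate gyrus replicate 3, layer V replicates 1 and 3, cerebellar replicates 1 and 2, interneuron replicates 2 and 3, all 3 astrocyte replicates and microglia replicate 3, with log2 fold changes from 0.90 to 0.999. With all 22 libraries and batch as a term it was 0.97.

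Acyl-CoA dehydrogenases, which open each round of the spiral and differ in the chain length they take, were all 4 higher in both glial types than in neurons. Acadl, for long chains, was at 277, 253 and 259 TPM in astrocytes, 64.7, 62.6 and 62.2 in microglia and 46.8, 48.5 and 53.8 in interneurons. The other neurons had 5.63, 5.30 and 5.38 TPM in layer V, 4.15, 4.26 and 4.12 in the cerebellum and 2.16, 2.59 and 4.06 in the dentate gyrus. Interneurons were thus close to microglia and far above the other neurons, and the 6 groups did not overlap. The oligodendrocyte markers given above were also highest in interneurons, and their part in this value was not tested. Astrocytes exceeded the neuronal mean (log2 fold change 5.40, SE 0.05, adjusted p = 3.0e-22), as did microglia (log2 fold change 3.27, SE 0.06, adjusted p = 1.9e-19). Acads, for short chains, was the only dehydrogenase highest in microglia, at 83.8, 84.6 and 78.3 TPM, against 37.8, 36.4 and 34.2 in astrocytes and 0.144 to 2.61 TPM (median 1.10) in neurons. The 3 groups were apart, and the difference between microglia and neurons was the largest of the 34 genes in that comparison (log2 fold change 6.78, SE 0.09, adjusted p = 1.3e-20), while astrocytes were lower than microglia (log2 fold change -1.10, SE 0.11, adjusted p = 8.3e-08), a call lost with no filter on low counts (-0.998). Acadm, for medium chains, and Acadvl, for very long chains, were higher in astrocytes than in neurons by log2 fold changes of 3.19 and 2.64, and in microglia by 2.24 and 1.499. Acadvl shares 42.9% of its exon bases on the opposite strand with Dvl2, which had a mean of at most 15.8 TPM, in microglia.
In the summed TPM of the 4 dehydrogenases, Acadl made up 45.1% in astrocytes and 43.9% in interneurons, against 5.96% in dentate granule cells. Acads made up 27.0% in microglia, 6.20% in astrocytes and 0.713% in layer V neurons. Acadvl and Acadm together held most of the level in the other neurons, with Acadvl at 54.7% in cerebellar granule cells and Acadm at 50.8% in dentate granule cells.

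The later steps of the spiral were higher in astrocytes than in neurons for all 5 genes, with log2 fold changes of 2.14 to 6.06. Hadha and Hadhb encode the alpha and beta subunits of the trifunctional protein, which handles long chains at the inner membrane. Hadha was at 169, 151 and 168 TPM in astrocytes, 122, 127 and 119.9 in microglia and 18.3 to 58.5 TPM (median 39.6) in neurons. Hadhb was at 327, 312 and 313 TPM in astrocytes, 76.9, 79.8 and 80.0 in microglia and 21.2 to 68.1 TPM (median 34.7) in neurons. For both genes the 3 groups were apart and astrocytes were highest, but the gap between astrocytes and microglia was small for Hadha (log2 fold change 0.54, SE 0.05, adjusted p = 6.3e-08, not called) and large for Hadhb (log2 fold change 2.14, SE 0.05, adjusted p = 5.5e-17). The ratio of Hadhb to Hadha in TPM was 1.94, 2.07 and 1.86 in astrocytes, 0.631, 0.627 and 0.667 in microglia, 1.45, 1.74 and 1.48 in interneurons and 1.10, 1.23 and 1.12 in layer V neurons. It was 0.787, 0.814 and 0.793 in cerebellar granule cells and 0.702, 0.764 and 0.699 in dentate granule cells. Astrocytes were highest and microglia lowest for this ratio. It counts all transcripts, and 1 annotated as a processed transcript held means of 64.7 to 73.6% of Hadha TPM in the 6 cell types. With protein-coding transcripts only, the ratio was 8.66, 8.71 and 8.98 in astrocytes and 2.87, 2.81 and 2.78 in microglia, again the highest and the lowest of the 6 cell types.
The genes start back to back on chromosome 5, Hadha on the minus and Hadhb on the plus strand, with 85 bases between the annotated starts (chr5:30155163-30155247, GRCm38, plus strand). That stretch is shown because both starts flank it while the levels of the genes differ, and capitals mark GGGCGG.
Hadha to Hadhb: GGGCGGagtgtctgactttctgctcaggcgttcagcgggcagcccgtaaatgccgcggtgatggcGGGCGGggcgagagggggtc

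Hadh, the hydroxyacyl-CoA dehydrogenase of short and medium chains, was at 172, 167 and 168 TPM in astrocytes, 48.9, 46.5 and 44.9 in microglia and 9.13, 10.97 and 8.56 in interneurons. It was at 4.84, 4.72 and 4.49 TPM in dentate granule cells, 2.08, 2.00 and 3.13 in layer V neurons and 0.913, 0.546 and 0.711 in cerebellar granule cells. The 6 groups did not overlap, with astrocytes above neurons (log2 fold change 6.06, SE 0.08, adjusted p = 1.4e-20) and cerebellar granule cells below the forebrain types (log2 fold change -2.68, SE 0.16, adjusted p = 4.5e-11). The ratio of Hadh to Hadha in TPM was 1.04 in astrocytes, 0.380 in microglia and 0.0131 in cerebellar granule cells. It counts all Hadha transcripts, most of whose TPM lay in the processed transcript given above. A ratio to protein-coding Hadha transcripts would be higher. Acaa2, the thiolase that ends each round, was at 184, 172 and 179.7 TPM in astrocytes, 38.2, 38.1 and 40.0 in microglia and 1.53 to 12.3 TPM (median 6.25) in neurons. Its astrocyte and microglia values were each above all neurons (log2 fold change 5.43, SE 0.06, adjusted p = 5.2e-22 for astrocytes), and its lowest values were in cerebellar granule cells, at 1.56, 2.06 and 1.53 TPM. Echs1, the short-chain hydratase, differed least of the 5, by a log2 fold change of 2.14 in astrocytes and 0.66, not called, in microglia.

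Enzymes that bring double bonds of unsaturated fatty acids into line were higher in both glial types than in neurons for all 3 genes. Eci1, an isomerase, was at 160.2, 148 and 158 TPM in astrocytes, 38.4, 33.0 and 39.3 in microglia and 28.2, 27.0 and 27.7 in cerebellar granule cells. The forebrain types were lower, at 16.2, 15.01 and 14.0 TPM in interneurons, 8.82, 10.9 and 9.12 in dentate granule cells and 4.86, 4.72 and 6.34 in layer V neurons, and no groups overlapped. Astrocytes exceeded neurons (log2 fold change 4.11, SE 0.05, adjusted p = 7.0e-21). Decr1, the dienoyl-CoA reductase, had log2 fold changes against neurons of 4.59 in astrocytes and 2.59 in microglia, and Eci2, another isomerase, of 3.33 and 2.01. Electron transfer, which passes electrons from the dehydrogenases to ubiquinone, was higher in astrocytes than in neurons by nearly equal amounts, with log2 fold changes of 2.21 to 2.23 for Etfa, Etfb and Etfdh. In microglia only Etfb was called (log2 fold change 1.60, SE 0.04, adjusted p = 2.6e-16), at 166, 157 and 157 TPM against 35.9 to 83.4 TPM (median 63.4) in neurons. Etfa and Etfb encode partner subunits of a heterodimer, and their TPM ratio was 1.57, 1.35 and 1.44 in cerebellar granule cells, 0.764, 0.812 and 0.815 in astrocytes and 0.340, 0.396 and 0.374 in microglia. Exons of Etfb share 617 bases (53.0%) on the same strand with Gm45233, which had a mean of at most 0.387 TPM.

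All 3 peroxisomal genes were higher in both glial types than in neurons, and 1 of them, Ehhadh, was also higher in astrocytes than in microglia. Hsd17b4, the D-bifunctional protein, was at 160.3, 163 and 143 TPM in microglia, 142, 133 and 141 in astrocytes and 24.5 to 49.0 TPM (median 45.2) in neurons. Both glial types were well above neurons (log2 fold change 2.05, SE 0.05, adjusted p = 1.3e-17 for astrocytes, log2 fold change 2.15, SE 0.04, adjusted p = 3.9e-18 for microglia), and their difference was not called (log2 fold change -0.09, SE 0.06, adjusted p = 0.20). Acaa1a, a peroxisomal thiolase, had log2 fold changes of 1.499 and 1.59 against neurons and -0.09 between astrocytes and microglia. Its values are uncertain, since it shares reads with the near-identical Acaa1b, and its exons also overlap by 6.57% on the opposite strand with Myd88, which stood at 77.7 TPM in microglia and 7.11 TPM in astrocytes. Ehhadh, the L-bifunctional protein, was low throughout, at 5.53, 5.16 and 5.98 TPM in astrocytes, 2.74, 2.62 and 2.40 in microglia and 0.591 to 2.27 TPM (median 1.44) in neurons, and was called higher in astrocytes (log2 fold change 2.36, adjusted p = 1.2e-13) and microglia (log2 fold change 1.17, adjusted p = 8.8e-09) than in neurons. Between astrocytes and microglia its log2 fold change was 1.19 (adjusted p = 3.1e-07). The call against neurons in microglia was lost with both limma settings, and that between astrocytes and microglia with limma on log2(TPM + 1).

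Ppara encodes PPAR alpha, the nuclear receptor that turns on many genes of fatty acid oxidation. Its level was 12.2, 9.10 and 11.6 TPM in astrocytes, 0.399, 1.23 and 0.704 in microglia and 0.0577 to 0.288 TPM (median 0.160) in neurons. Astrocytes were above all other libraries, and neurons were near 0. The difference between astrocytes and neurons was among the largest (log2 fold change 6.71, SE 0.19, adjusted p = 5.1e-16), and microglia were between (log2 fold change 2.72, SE 0.24, adjusted p = 8.4e-09), a call lost with limma on log2(TPM + 1). The microglial level is among the 7 at or under 7.32% of the astrocyte level.

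Neither gene of ketone use was called between astrocytes and neurons. Bdh1 was at 161, 156 and 178 TPM in astrocytes, 62.2 to 89.5 TPM (median 82.7) in neurons and 10.3, 10.6 and 9.59 in microglia. The 3 groups were apart, with microglia lowest (log2 fold change -2.83, SE 0.07, adjusted p = 2.5e-17), and the difference between astrocytes and neurons did not reach 2-fold on counts (log2 fold change 0.89, SE 0.05, adjusted p = 1.2e-11). With counts scaled to the average length of the transcripts in use it was 1.31 and was called. It was also called with both limma settings. Oxct1 was at 426, 359.6 and 429 TPM in astrocytes, 238 to 389 TPM (median 300.3) in neurons and 202.8, 220.4 and 190.4 in microglia. Astrocytes overlapped with neurons, microglia lay below all of them, and neither difference was called (log2 fold change 0.47, SE 0.04, adjusted p = 4.3e-09 for astrocytes, log2 fold change -0.51, SE 0.04, adjusted p = 2.6e-09 for microglia). The ratio of Oxct1 to Bdh1 in TPM was 19.6, 20.8 and 19.9 in microglia and 2.65, 2.31 and 2.41 in astrocytes, with means in the neuronal types from 3.54 to 4.14. Bdh1 in microglia is also among the levels at or under 7.32% of the astrocyte level.

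Between neurons, cerebellar granule cells differed from the forebrain types in 12 genes. Higher were Acsl6, Cpt2, Acads, Eci1, Decr1 and Bdh1, and lower were Acsl5, Fabp5, Cpt1a, Acadl, Hadh and Acaa2. For Acsl6, Eci1 and Decr1 every cerebellar library was above all 9 forebrain libraries, and for Acsl5, Fabp5, Hadh and Acaa2 every one was below them. How many of all genes tested lay apart in this way was not counted. Decr1 was at 7.50, 6.28 and 6.601 TPM, against 1.73 to 5.71 TPM (median 2.21) in the forebrain, with a log2 fold change 1.30, SE 0.07, adjusted p = 6.9e-12. Acsl5 was at 8.83, 6.73 and 6.84 TPM, against 28.1 to 65.4 TPM (median 36.4) in the forebrain, with a log2 fold change -2.37, SE 0.06, adjusted p = 2.5e-16. Acaa2 was at 1.56, 2.06 and 1.53 TPM, against 3.53 to 12.3 TPM (median 8.63) in the forebrain, with a log2 fold change -2.09, SE 0.10, adjusted p = 1.5e-12. Of the other 5 genes, Acads, Cpt1a and Bdh1 overlapped with some forebrain libraries, and Cpt2 and Acadl lay between forebrain types without overlap. Cpt2 (log2 fold change 1.87) was lower in cerebellar granule cells than in interneurons although higher than the forebrain mean, and Acads (log2 fold change 1.83) overlapped with interneurons. Cpt1a, at 0.625, 0.260 and 0.462 TPM against 0.538 to 1.78 TPM (median 1.23), overlapped with layer V neurons (log2 fold change -1.72, SE 0.21, adjusted p = 6.2e-07). The calls of Cpt1a, Cpt2, Acads and Decr1 were lost with limma on log2(TPM + 1).
The fall of Acadl (log2 fold change -1.17, SE 0.08, adjusted p = 4.2e-10) rested on the interneurons. In batch 1 alone, which has none, it was 0.03 (adjusted p = 0.78), and without the 3 interneuron libraries it was 0.04 (adjusted p = 0.73).

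Bdh1 was higher in cerebellar granule cells on counts (log2 fold change 1.09, SE 0.05, adjusted p = 1.5e-12), but in TPM it was 89.5, 88.4 and 85.6 against 62.2 to 89.1 TPM (median 75.4) in the forebrain, and the groups overlapped. With length-scaled counts the log2 fold change was 0.23 and with upper quartile factors 0.995, neither of them called. The transcripts differed in parallel. A transcript that starts at chr16:31428748 (plus strand), downstream of the other main start (31422280), held 69.5, 72.5 and 75.7% of the gene's TPM in cerebellar granule cells, against means of 19.1% in interneurons, 18.5% in the dentate gyrus and 23.5% in layer V neurons. All 4 transcripts with a downstream start summed to 79.6% in cerebellar granule cells, 70.6% in microglia, 65.2% in dentate granule cells, 56.7% in interneurons, 53.9% in astrocytes and 45.1% in layer V neurons. The transcripts from the 2 main starts have the same coding start (31438035) and a coding length of 1029 bases.

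Among dentate granule cells, layer V neurons and interneurons, the 14 genes that differed were Acsl5, Fabp3, Fabp5, Fabp7, Cpt1a, Cpt2, Acadl, Acads, Hadh, Hadhb, Acaa2, Ehhadh, Eci1 and Decr1. The largest ranges were Acadl (log2 of highest over lowest 4.05, adjusted p = 2.1e-16) and Cpt2 (3.38, adjusted p = 2.2e-13), both with interneurons highest. The median range of the 34 genes was 0.84, beside 0.98 over all genes. Without the interneuron libraries 4 genes were called (11.8%, against 26.4% of all genes): Fabp3, Fabp5, Acadl and Acaa2. Fabp3 and Acadl were then higher in layer V neurons, as was Fabp5, and Acaa2 was higher in dentate granule cells. Interneurons were the only one of the 3 types from batch 2, and they held the oligodendrocyte markers given above at a mean of 2451 TPM. With all 22 libraries and batch as a term 14 genes were called, and the part of the markers in the 10 calls that need interneurons was not tested. Cpt1a had a range of 1.05, which was 0.91 and not called without interneuron replicate 2.

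Other genes of the pathway, 45 by name of which 42 were tested, were compared in the same way. Of these, 26 were higher (61.9%, against 28.3% of all genes tested) and 2 lower (4.76%, against 13.7%) in astrocytes than in neurons. Bdh2, a cytosolic hydroxybutyrate dehydrogenase, was at 7.11, 7.78 and 9.19 TPM in astrocytes (log2 fold change 6.397, adjusted p = 2.5e-14). Hacl1, of peroxisomal alpha oxidation, was at 30.7, 38.1 and 37.9 TPM (log2 fold change 5.13, adjusted p = 3.7e-18), and Acot1, an acyl-CoA thioesterase whose close copy Acot2 makes its counts uncertain, at 79.8, 89.0 and 95.2 TPM (log2 fold change 4.63, adjusted p = 3.6e-17). Lower were the thioesterase Acot7, known from neurons, at 78.6, 87.1 and 71.4 TPM in astrocytes (log2 fold change -2.45, adjusted p = 5.9e-16), and the monocarboxylate carrier Slc16a7, at 2.12, 1.70 and 1.49 TPM (log2 fold change -2.07, adjusted p = 5.1e-13). In microglia 16 were higher than in neurons (38.1%, against 31.7%) and 4 lower (9.52%, against 21.4%). Like the 26 of astrocytes, the 16 include Cd36, at means of 0.613 TPM in astrocytes and 0.314 in microglia. Cd36 did not exceed every neuronal type, with 0.733 TPM in layer V neurons and 1.21 in interneurons. It was at 0.234 TPM in dentate granule cells and 0 in cerebellar granule cells. Bdh2 (log2 fold change 4.00, adjusted p = 3.3e-10), the acyl-CoA dehydrogenase Acad12 (log2 fold change 3.14, adjusted p = 1.5e-16) and Pecr, a peroxisomal reductase (log2 fold change 2.92, adjusted p = 1.3e-16) stood highest above neurons. Acot7 (log2 fold change -3.72, adjusted p = 3.3e-18), the coactivator Ppargc1a (log2 fold change -3.31, adjusted p = 2.7e-16) and Aacs, an acetoacetyl-CoA synthetase (log2 fold change -1.52, adjusted p = 4.8e-14) stood lowest below them. Pecr was at 46.3, 41.9 and 39.7 TPM in microglia and 8.09, 7.16 and 8.20 TPM in astrocytes.

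Between the glial types, 22 of the 42 were higher in astrocytes (52.4%, against 23.1% of all genes) and 5 lower (11.9%, against 21.1%). Acot1 was higher in astrocytes (log2 fold change 4.33, adjusted p = 8.0e-14), as were Ppargc1a (log2 fold change 3.92, adjusted p = 3.3e-16) and Acox2, a peroxisomal oxidase (log2 fold change 3.48, adjusted p = 7.3e-05). Acox2 was at 0.299, 0.136 and 0.624 TPM in astrocytes and 0.221, 0.0454 and 0.0102 TPM in microglia, which overlap, and its log2 fold change was 4.19 without microglia replicate 1. Higher in microglia were Pecr (log2 fold change -2.41, adjusted p = 1.7e-12), Cpt1b, the muscle form of carnitine palmitoyltransferase (log2 fold change -1.63, adjusted p = 7.8e-05) and Acox3, a further peroxisomal oxidase (log2 fold change -1.62, adjusted p = 2.9e-12). Cerebellar granule cells were above the forebrain types for 3 genes (7.14%, against 14.5%) and below for 11 (26.2%, against 29.1%). The 3 were Cpt1b (log2 fold change 1.69, adjusted p = 1.5e-05), the peroxisomal carrier Abcd2 (log2 fold change 1.54, adjusted p = 3.9e-14) and Crot, a carnitine octanoyltransferase (log2 fold change 1.22, adjusted p = 4.3e-11). The fatty acid carrier Cd36 had 0 counts in all 3 cerebellar libraries and 369 over the 9 forebrain libraries, at least 14.1-fold lower against a floor of 3 counts per library. Acaa1b had 2 counts in cerebellar granule cells, under that floor, and 188 in the forebrain. The interval of its ratio, 0.00360 to 0.110, covers counting error only, and its reads are shared with Acaa1a. Acot1 was lower as well (log2 fold change -4.17, adjusted p = 7.5e-12). Among the forebrain types 17 of the 42 differed (40.5%, against 42.5%), with Cd36 (2.27) and Ppargc1a (2.18) the largest log2 ranges apart from Acox2. The lowest forebrain library held 3 counts of Cd36, which is at the floor. Acox2 was also called there, but each of its libraries held at most 3 counts, so no fold is given.

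Promoter sequences from RefSeq (GRCm38.p6), 300 bases from 250 before to 50 after the start, were available for 30 of the 34 genes. Decr1, Fabp5, Hsd17b4 and Acaa2 were not in the table. On either strand, AGGTCA was found in 7 of the 30 (23.3%), Acsl6, Fabp7, Cpt1a, Cpt1c, Acadm, Acadvl and Echs1, against 18.1% of all 27025 genes with a promoter there. A gene counted as a match if any of its promoters held one, so genes with more promoters had more chances. AAGGTCA, which contains it, was found in Acsl6 and Acadm (6.67%), against 5.38%. The direct repeat AGGTCANAGGTCA, the form bound by PPAR alpha with its partner, was in none of the 30 and in 13 of all these genes (0.0481%). GGGCGG was in 22 of the 30 (73.3%), against 38.2% of all these genes, and GGGGCGG, which contains it, in 17 (56.7%), against 25.5%. All 34 members passed the filter on low counts, while the 27025 genes include ones that did not. The shares among genes that passed it were not computed, so these differences are not taken as a trait of the pathway. These matches describe the sequence and do not show binding.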

How the data were processed

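Reads had been trimmed (cutadapt 3.5) and assigned to GENCODE M24 transcripts (kallisto 0.46.2) by the authors. The deposited values are the estimated count and the TPM of each transcript in each library. Here both were summed over the transcripts of a gene, and estimated counts were rounded for the tests. The 18 main libraries held 38270477 to 71440915 estimated counts (median 54631726), with at most 2.15% in a single transcript. Because kallisto divides reads among similar transcripts, close copies and overlapping genes have uncertain levels, and TPM is relative within a library.

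Tests used edgeR 4.0.16 in R 4.3.3 (TMM factors, filterByExpr, quasi-likelihood fit, Benjamini-Hochberg over 20524 genes) without a batch term, since each cell type of the 18 main libraries lies in 1 batch. The steps were tested on simulated data with known changes. DESeq2 1.42.0, limma 3.58.1, other filters, factors, pseudocounts and library choices were tried as alternatives. The sleuth model of the study was not used here. Tables and plots were made with Python 3.11.15, pandas 2.3.3, numpy 2.4.6, scipy 1.17.1 and matplotlib 3.10.9. Any of the 34 genes could be named. Of the wider pathway, the 3 called genes with the largest fold in each direction of each comparison were named. From the lists set before the tests, 4 genes are not reported here. The members and lists were chosen with earlier results of these data known. Positions of genes and exons are from GENCODE M21 on GRCm38.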

Additional observations from a re-analysis of the deposited data

How the results depend on the processing

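Of 5294 values for named genes under 35 alternatives, 5111 kept their direction and their side of the threshold, 129 lost a call, 38 gained a call and 16 changed sign. Leaving out the 2 alternatives that only change the fold required, 4873 of 4986 kept both. Requiring at least 4-fold kept 27 calls in astrocytes against neurons, 1 of them lower, and lost 4. In microglia against neurons it kept 14 (12 higher and 2 lower) and lost 14. In astrocytes against microglia it kept 12 (11 higher and 1 lower) and lost 13. In cerebellar granule cells it kept 4, of which 0 were higher, and lost 8. Among forebrain neurons 4 genes still differed (11.8%, against 20.0% of all genes). With adjusted p alone, 14 were higher and 17 lower in cerebellar granule cells and 33 differed among forebrain neurons (97.1%, against 78.4% of all genes). These 2 rules change only the fold required. Under these rules on fold only the forebrain counts have a share of all genes beside them. The other counts are not compared with all genes. With limma on log2(TPM + 1), 2 genes were higher in cerebellar granule cells (5.88%, against 9.90% of all genes) and 18 differed among forebrain neurons (52.9%, against 27.8%). With log2(TPM + 0.1) these were 5 (14.7%, against 13.1%) and 20 (58.8%, against 42.5%), and Cpt2, Acads and Decr1 as higher were lost with log2(TPM + 1) only. Cpt1a as lower in cerebellar granule cells, Cpt1a and Ehhadh among forebrain neurons, Ppara in microglia against neurons and Ehhadh in astrocytes against microglia were likewise lost with log2(TPM + 1) only. The cause of the changes with limma was not tested. In batch 2 only, 4 cell types have 1 library each and the spread comes from microglia and interneurons alone, so its counts are not taken as support. In batch 1 only, and without the interneuron libraries, a setting added after the data had been seen, 4 genes (11.8%) differed among forebrain neurons, against 27.2% and 26.4% of all genes, where 2 cell types remained to be compared.

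Acadl in cerebellar granule cells against forebrain neurons changed sign in both of these settings, from -1.17 to 0.03 and 0.037, and both lack the interneurons. The other changes of sign were in differences near 0 that were not called. Acsl1 in microglia against neurons went from 0.0347 to -0.0461 with no filter on low counts, -0.0493 with length-scaled counts, -0.0369 with the batch 2 library of repeated replicates, -0.0407 with all 22 libraries, -0.0436 in batch 2 only, -0.172 and -0.176 with limma, and to between -0.0418 and 0.0287 with 1 replicate left out. Acaa1a in astrocytes against microglia went from -0.0918 to 0.0136 with no filter and 0.041 with length-scaled counts, and Hsd17b4 from -0.0916 to 0.0113 with no filter. The cause was not tested.

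Other calls moved as follows, apart from the rules on fold, and the cause was not tested. In microglia against neurons Slc25a20 was lost with no filter, length-scaled counts, the batch 2 library of repeated replicates, all 22 libraries, batch 2 only, both limma settings and 11 of the replicates left out, Ehhadh was lost with both limma settings, and Acsl4 was gained with no filter, batch 2 only, limma on log2(TPM + 0.1) and without interneuron replicate 3. In astrocytes against microglia Fabp3 was lost with upper quartile factors, at least 10 CPM in 3 libraries, both limma settings and without astrocyte replicate 2, Acads with no filter, and Acadvl with both limma settings, while Cpt2, Acadm and Oxct1 were gained in 7, 2 and 7 settings. Bdh1 was gained in astrocytes against neurons with length-scaled counts and both limma settings, and lost in cerebellar granule cells with upper quartile factors, length-scaled counts and both limma settings. Among forebrain neurons Acsl5 was lost with both limma settings, and Acsl6, Slc25a20, Acadm, Hadha, Eci2, Echs1 and Etfa were gained with both. Ppara was gained there without dentate gyrus replicate 2 and Slc25a20 without layer V replicate 2. Without the interneuron libraries Fabp5 was lost in microglia against neurons. Ehhadh was gained in cerebellar granule cells in that setting and in batch 1 only. The filter of at least 10 CPM left Ehhadh untested.

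Leaving out 1 replicate at a time gave 27 higher and 4 lower in astrocytes against neurons, 21 to 22 higher and 6 to 7 lower in microglia against neurons, 21 to 25 higher and 3 lower in astrocytes against microglia, 6 and 6 in cerebellar granule cells, and 13 to 15 among forebrain neurons. Of all genes tested in these fits (20985 to 21286), 5526 to 5980 were higher and 2827 to 3148 lower in astrocytes against neurons. For microglia against neurons these were 6176 to 6841 and 4365 to 4718. For astrocytes against microglia they were 4509 to 5072 and 3977 to 4796. Cerebellar granule cells had 3018 to 3322 higher and 5611 to 6122 lower, and 8473 to 8931 differed among forebrain neurons. With the replicate number as a block, counts were 27 and 4, 22 and 6, 22 and 3, 6 and 6, and 14. Over all 20524 genes that fit called 5789 and 2809, 6482 and 4385, 4731 and 4301, 2979 and 5948, and 8639. In 45 pairs of cell types at the same number, 2 had a correlation of residuals above 0.1 (-0.10 to 0.11, median 0.04), so the numbers are not taken as paired samples. limma on log2(TPM + 1) called 2730 genes higher and 2776 lower in astrocytes against neurons, a share of higher calls 17.8 points below that of edgeR (5808 and 2810), and 3565 and 3904 in microglia against neurons, 12.0 points below (6512 and 4392). With log2(TPM + 0.1) astrocytes had 4160 and 3645, 14.1 points below. Medians over all genes moved there by -0.24, -0.21 and -0.28. Comparisons with microglia could not be fitted in batch 1 only. Depth limits genes such as Cd36 and Acox2, with few counts in neurons.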

Other observations

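Of the replicates, 4 were sequenced again in batch 2, and the repeats allow the levels of the 34 genes to be compared between batches within a replicate as titled, though the labels of 1 of the 4 pairs differ in sex. As the difference of log2(TPM + 1), batch 2 minus batch 1, the median over the 34 genes was -0.01 in dentate gyrus granule cells replicate 3, -0.002 in layer V neurons replicate 1, -0.01 in cerebellar granule cells replicate 3 and 0.01 in astrocytes replicate 2. The extremes were -0.30 for Fabp7 and 0.28 for Acsl5, both in cerebellar granule cells. Differences within 0.2 in either direction held for 32, 32, 30 and 34 of the 34 genes in that order.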
